A study of Danio rerio with 12 samples.

Results

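RASL11B (ENSDARG00000015611) and SHTN1 (ENSDARG00000039697) were examined as a pair because later work in the field placed both genes downstream of the guidance molecule Sema6A and its receptor PlexinA2. They were found by their Ensembl identifiers and are 2 of the 5134 rows of the expression table, with 1 row each. RNA came from zebrafish (Danio rerio) embryos and was hybridised to 12 NimbleGen 1-colour arrays, in 3 groups of 4. All groups were of the rx3:GFP line, raised at 25 °C and taken at the 18 somite stage, which the labels also give as 18 hours after fertilisation. The first group carried a morpholino against Sema6A and the second a morpholino against PlexinA2, injected at the one-cell stage. The third was the control, labelled wild-type, whose arrays are titled UIC and for which no injected agent is named. A morpholino is an antisense oligonucleotide that blocks translation or splicing of its target RNA, so these embryos model a transient reduction and not a mutation. The rows of the targeted genes were not analysed here, so the reduction itself was not checked. As no control injection is named, an effect of injection cannot be told apart from an effect of the reduction. Whether the later work chose RASL11B and SHTN1 from these same arrays is not known here, and their changes below are therefore no independent evidence.

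Semaphorins are guidance cues that act on cells bearing plexin receptors, and the inner part of a plexin holds a domain that switches off small GTPases of the Ras and Rap families. In the zebrafish eye field, Sema6A and PlexinA2 are known for keeping the early retinal precursor cells together. RASL11B encodes a small GTPase related to Ras that lacks the membrane anchor of most Ras proteins and was studied in zebrafish for its part in early mesendoderm. SHTN1 encodes shootin, a cytoplasmic protein studied in rodent neurons. There it gathers at the tip of the growing axon, couples moving actin filaments to the adhesion molecule L1 through cortactin, and acts downstream of netrin and the kinase Pak.

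Both genes were higher in both morphant groups than in controls, and on every morphant array than on any control array. RASL11B was 4.54-fold higher in sema6A morphants and 2.99-fold higher in plexinA2 morphants. SHTN1 was 2.32-fold higher in sema6A morphants and 2.17-fold higher in plexinA2 morphants. Neither gene differed between the morphants past the threshold.

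The RASL11B intensities, which the authors deposited as RMA values on a linear scale, were 4183, 4422, 4009 and 3197 on sema6A replicates 1 to 4. They were 2518, 3951, 1853 and 2399 on plexinA2 replicates 1 to 4, against 984, 918, 1095 and 562 on control replicates 1 to 4. The lowest sema6A array stood 2.92-fold above the highest control, and the lowest plexinA2 array 1.69-fold above it. Among the plexinA2 arrays, replicate 2 reached the level of the sema6A arrays while replicate 3 was closest to the controls. Group means were 3953 ± 532 in sema6A morphants, 2680 ± 895 in plexinA2 morphants and 890 ± 231 in controls (SD, n = 4 each).

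RASL11B rose by 2.18 ± 0.30 on the log2 scale in sema6A morphants (SE, 95% interval 1.55 to 2.82, limma adjusted p = 0.000366). It rose by 1.58 ± 0.30 in plexinA2 morphants (0.94 to 2.22, limma adjusted p = 0.00525). Adjustment was by Benjamini-Hochberg over all 5134 rows, and a row was called at an adjusted p under 0.05. Rows called higher made up 1.99% of the table in sema6A morphants and 2.61% in plexinA2 morphants. By size of difference RASL11B ranked 18 of 5134 in the first comparison and 76 in the second. Both calls were kept without any single array, with a largest adjusted p of 0.00282 in sema6A morphants (without sema6A replicate 2) and of 0.0311 in plexinA2 morphants (without plexinA2 replicate 2). Because embryos were homogenised whole, more cells carrying a transcript and more transcript per cell cannot be told apart here.

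SHTN1 intensities were 863, 1189, 900 and 766 on sema6A replicates 1 to 4. They were 810, 821, 883 and 933 on plexinA2 replicates 1 to 4, against 436, 314, 484 and 370 on control replicates 1 to 4. The lowest sema6A array was 1.58-fold and the lowest plexinA2 array 1.67-fold above the highest control, and replicate 2 was the highest of the sema6A arrays. Means were 929 ± 182 in sema6A morphants, 862 ± 57.3 in plexinA2 morphants and 401 ± 74.6 in controls (SD, n = 4 each).

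SHTN1 rose by 1.21 ± 0.27 on the log2 scale in sema6A morphants (SE, 95% interval 0.66 to 1.77, limma adjusted p = 0.0167). It rose by 1.12 ± 0.27 in plexinA2 morphants (0.56 to 1.68, limma adjusted p = 0.0240). It ranked 114 by size of difference in sema6A morphants and 201 in plexinA2 morphants, among the 5134 rows. These calls lay nearer the threshold than those of RASL11B. In sema6A morphants the call was lost without sema6A replicate 2 (1.09, adjusted p = 0.0802) or sema6A replicate 3 (1.22, adjusted p = 0.0527), and when only the sema6A and control arrays were fitted (1.21, adjusted p = 0.102). In plexinA2 morphants it was lost without plexinA2 replicate 1 (adjusted p = 0.0607), 2 (0.0631), 3 (0.0865) or 4 (0.1), and without control replicate 1 (0.0524), with differences between 1.08 and 1.17. An exact permutation test of each of the 4 differences from controls gave p = 0.0286, two-sided, the smallest that 4 arrays against 4 allow.

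**Figure D1:**
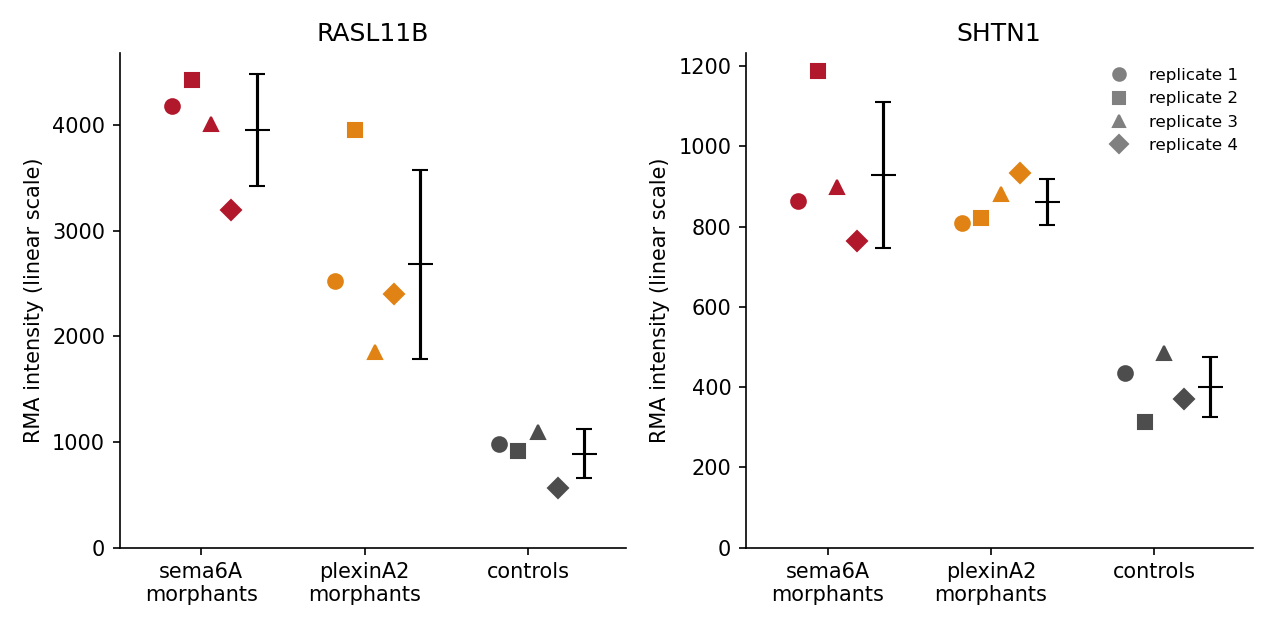
Intensity (RMA, linear scale from 0) of RASL11B and SHTN1 on each of the 12 arrays, with marker shape for the replicate number and bars for the group mean ± SD (n = 4). All 8 morphant arrays lie above all 4 control arrays for both genes, and the RASL11B points of plexinA2 morphants spread between 1853 and 3951.

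Ranges that did not overlap, with the morphants above the controls, were found for 7.11% of all rows in sema6A morphants and 7.27% in plexinA2 morphants. RASL11B and SHTN1 were 2 of the 57 rows, or 1.11% of the table, that were called higher in each morphant group. Both comparisons use the same 4 control arrays, so a control level that happened to be low would enter both. Control replicate 4 was the lowest array for RASL11B and control replicate 2 the lowest for SHTN1. The rank correlation with the other 11 arrays was lowest for control replicate 2, at 0.835, followed by sema6A replicate 1 at 0.876, against 0.907 to 0.932 for the remaining arrays. With those 2 arrays left out RASL11B and SHTN1 kept all 4 calls.

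**Figure D2:**
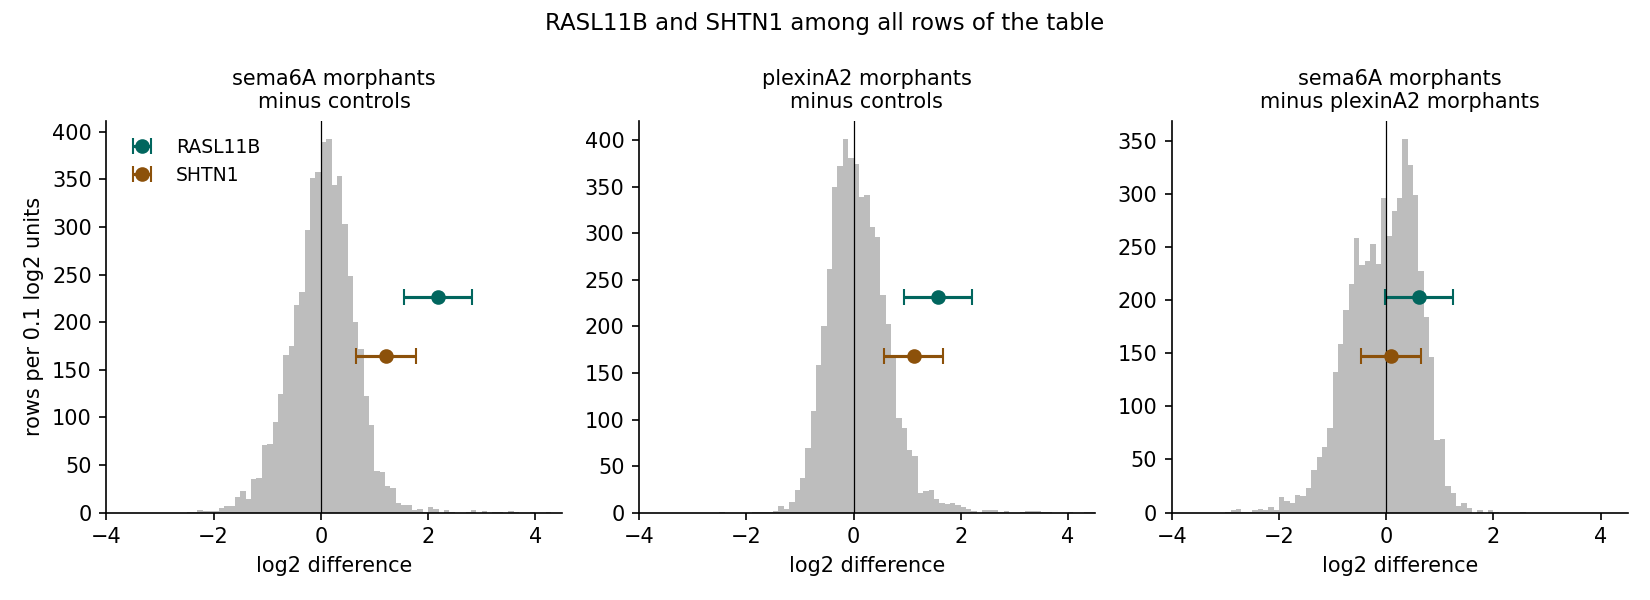
Histogram of the log2 difference of all 5134 rows (grey) in each of the 3 comparisons, with the difference of RASL11B and SHTN1 and its 95% interval (limma) drawn at an arbitrary height. In both comparisons with controls the intervals of RASL11B and SHTN1 lie above 0, and in the comparison of the morphants with each other all include 0.

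The order of the RASL11B means was sema6A morphants, plexinA2 morphants, controls, and the step between the morphants did not pass the threshold. That difference was 0.61 ± 0.30 on the log2 scale (sema6A minus plexinA2, SE, 95% interval −0.03 to 1.24, limma adjusted p = 0.208), or 1.52-fold with an interval of 0.978 to 2.37. The ranges overlapped, with sema6A replicate 4 (3197) below plexinA2 replicate 2 (3951). An exact permutation test gave p = 0.0571, two-sided. When arrays were weighted by quality the difference was 0.65 and passed (limma adjusted p = 0.0222), but 2273 rows were called in that fit, against 88 (1.71%) without weights.

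SHTN1 had the same order of means with a smaller step. The difference between sema6A and plexinA2 morphants was 0.09 ± 0.27 (SE, 95% interval −0.46 to 0.65, limma adjusted p = 0.840). The interval covers a fold of 0.725 to 1.57, so a difference in either direction within it remains compatible with these 4 arrays in each group. Without sema6A replicate 2, the highest array, it was −0.033 (adjusted p = 0.960).

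Group membership accounted for 88.7% of the variance of log2 RASL11B over the 12 arrays and for 88.6% of that of SHTN1. Their spread within groups differed. RASL11B had an SD of 0.21 in sema6A morphants, 0.45 in plexinA2 morphants and 0.43 in controls, on the log2 scale. In plexinA2 morphants its SD exceeded that of 85.1% of rows, and in the same 4 arrays the SD of SHTN1 (0.10) exceeded that of only 2.88%. The plexinA2 arrays were the most alike of the 3 groups over all rows, with mean rank correlations of 0.967 to 0.976 to one another. The SD of SHTN1 was 0.27 in sema6A morphants and 0.27 in controls. Over all groups the residual SD was 0.38 for RASL11B and 0.23 for SHTN1, against a median of 0.47 over all rows.

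Over the 12 arrays the log2 levels of RASL11B and SHTN1 had a Pearson r of 0.90 and a Spearman rank correlation of 0.77. This is a description without a test, since the arrays fall into controls and morphants and the shared rise sets most of it. With each group's mean removed the correlation was 0.28 (exact permutation within groups, two-sided p = 0.405, n = 12), and the rank correlation was 0.43 (exact permutation p = 0.209, n = 12). Adjusted over these 2 measures, both p-values were 0.405. Deviations of the genes had the same sign on 6 of 12 arrays. Without the 2 arrays farthest from the RASL11B median, control replicates 2 and 4, r was 0.17 (exact permutation p = 0.543, n = 10). Without the 2 arrays of largest RASL11B deviation from their group mean, control replicate 4 and plexinA2 replicate 2, it was 0.56 (exact permutation p = 0.0949, n = 10). A shared movement of the genes from array to array within groups was therefore not detectable with this number of arrays.

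The arrays show where the genes parted. Sema6A replicate 2 was highest and replicate 4 lowest of its group for both genes, and control replicate 3 was the highest control for both. Among plexinA2 arrays the orders ran apart: RASL11B was highest on replicate 2 and lowest on replicate 3, whereas SHTN1 was highest on replicate 4 and lowest on replicate 1.

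**Figure D3:**
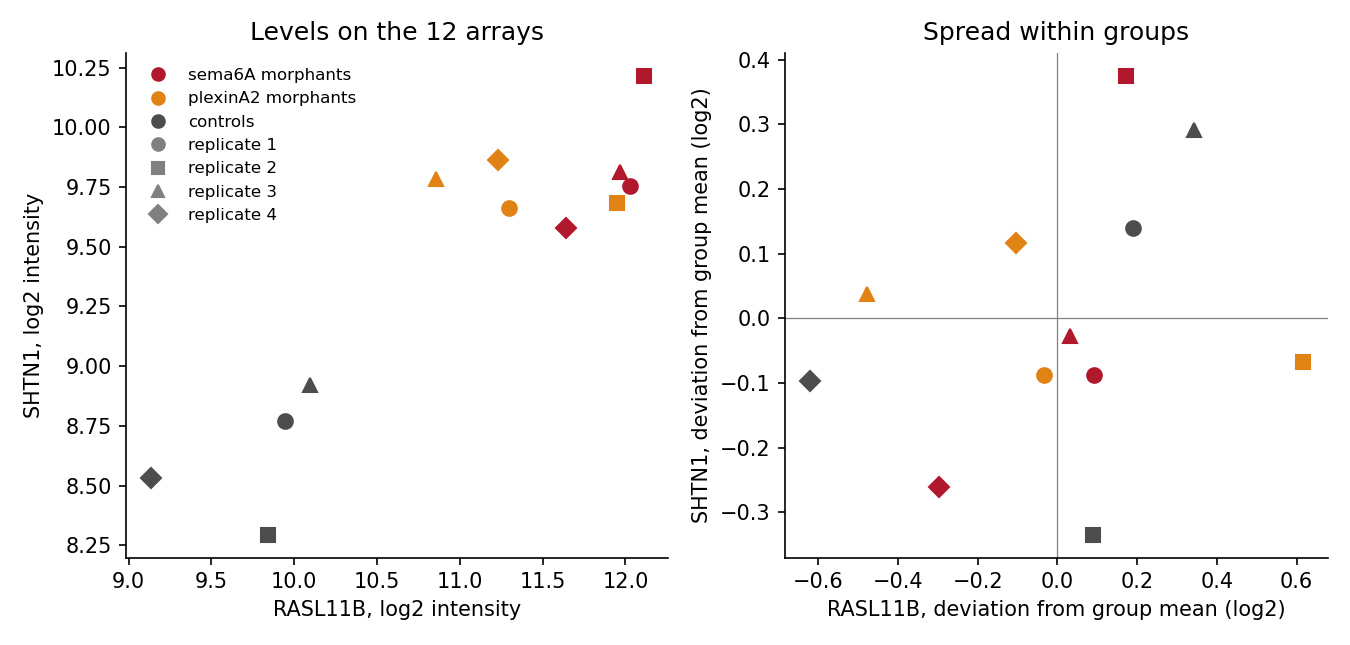
SHTN1 against RASL11B on the 12 arrays, as log2 intensities (left) and as deviations from each group's mean (right), coloured by group with marker shape for the replicate number. The controls sit apart from the morphants on the left (r = 0.90), and the deviations on the right scatter widely (r = 0.28).

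The log2 ratio of RASL11B to SHTN1 was taken within each array, and its difference between groups compares how far each gene moved. The ratio was 2.28, 1.89, 2.16 and 2.06 on sema6A replicates 1 to 4. It was 1.64, 2.27, 1.07 and 1.36 on plexinA2 replicates 1 to 4, against 1.17, 1.55, 1.18 and 0.60 on control replicates 1 to 4. All sema6A ratios lay above all control ratios, whereas the plexinA2 ratios overlapped both other groups. The ratio was higher by 0.97 in sema6A morphants than in controls (exact permutation, two-sided p = 0.0286, adjusted over 3 comparisons p = 0.0857), which did not pass after adjustment. In plexinA2 morphants it was higher by 0.46 (exact permutation p = 0.257, adjusted p = 0.257). Between sema6A and plexinA2 morphants it differed by 0.51 (exact permutation p = 0.114, adjusted p = 0.171). Leaving out single arrays gave differences from controls of 0.80 to 1.11 in sema6A morphants. Unadjusted exact permutation p for these was 0.0286 to 0.0571, the larger value arising without sema6A replicate 1, 3 or 4. In plexinA2 morphants the differences were 0.23 (without plexinA2 replicate 2) to 0.63 (without plexinA2 replicate 3), and 0.28 without control replicate 4. There the unadjusted exact permutation p lay between 0.0857 and 0.514.

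The rows most like RASL11B over the 12 arrays, by Pearson r of log2 values, were the AP-1 transcription factor gene FOS (0.956), the poly(ADP-ribose) polymerase gene PARP3 (0.954), mat2al (0.950), the GTP-binding protein gene GTPBP1 (0.949) and the apoptosis effector gene BAX (0.947). Those most like SHTN1 were UPB1 (0.974), an enzyme gene of pyrimidine breakdown, TNFAIP6 (0.969), a hyaluronan-binding protein gene, FOS (0.964), mat2al (0.963) and mdm2 (0.960), which encodes the ubiquitin ligase of p53. FOS and mat2al stood in both sets. SHTN1 was 17th in the order of likeness to RASL11B, and RASL11B was 26th in that to SHTN1, among 5133 other rows. Other rows with an r above 0.9 numbered 16 for RASL11B and 26 for SHTN1, and 11 of them were shared. Of the 11, 10 were called higher in each morphant group and 4 belonged to the p53 response list described below. Rows picked for likeness to genes that rose in both groups are largely bound to be called higher, so the 10 calls are no separate finding. Of all rows, 1.11% were called higher in each group. Besides RASL11B and SHTN1 these were 55 rows, of which 10 belonged to the p53 response list. FOS rose by 3.05 ± 0.30 in sema6A morphants (SE, limma adjusted p = 4.89e-06) and by 2.81 ± 0.30 in plexinA2 morphants (adjusted p = 1.11e-05). These likenesses too rest mostly on the difference between groups.

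With group means removed, other rows came first. For RASL11B they were si:ch211-105d18.2 (r = 0.920), homer3b (0.892), a postsynaptic scaffold gene, and VAMP8 (0.851), a vesicle fusion gene. For SHTN1 they were nfkbiaa (0.905), an inhibitor gene of NF-κB, crip3 (0.894) and gpd1c (0.885). Of these 6 rows, nfkbiaa alone passed a comparison with controls, in plexinA2 morphants (1.72, limma adjusted p = 0.00106, against 0.99 and 0.0584 in sema6A morphants). By this measure SHTN1 was 1062nd in likeness to RASL11B and RASL11B 1643rd in that to SHTN1, among 5133 other rows. The 6 rows were picked as the highest among so many, without a test, so their r values are no evidence of a shared movement.

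The closest measured relatives of the 2 genes did not pass. The row of rasl11a, the paralogue of RASL11B, differed by 0.07 ± 0.32 in sema6A morphants (SE, limma adjusted p = 0.934) and by −0.08 ± 0.32 in plexinA2 morphants (adjusted p = 0.918). The row of shtn3, a shootin family gene, differed by 0.18 ± 0.59 (adjusted p = 0.904) and 0.72 ± 0.59 (adjusted p = 0.562). Its log2 SD was 1.64 in controls, so a rise like that of SHTN1 would not have been detectable for shtn3.

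Of 17 other measured rows of the Ras family and its pathway (92 names), none passed in either morphant group by limma, and 2 in sema6A and 1 in plexinA2 morphants had an unadjusted p under 0.05, against 20.6% and 17.2% of all rows. Without control replicate 4, 1 row passed in each. The median log2 difference was 0.05 in sema6A morphants and −0.08 in plexinA2 morphants, against 0.06 and 0.04 over all rows. The rows of smallest p were ptpn11b, a phosphatase gene of Ras signalling (−0.93 ± 0.27, adjusted p = 0.0624), in sema6A morphants and KSR1, a scaffold gene of the Raf and MEK kinases (0.88 ± 0.32, adjusted p = 0.166), in plexinA2 morphants. A second KSR1 row differed by 0.42 in plexinA2 morphants (adjusted p = 0.508). Leaving out single arrays moved the sema6A median between −0.06 and 0.05, to either side of 0, and the plexinA2 median between −0.17 and −0.06. At an adjusted p under 0.05, 3.12% of all rows passed in either direction in sema6A morphants and 2.86% in plexinA2 morphants.

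The list of shootin partners, neuronal polarity and actin linkage (108 names) had 25 other measured rows. In sema6A morphants 1 rose and 24 did not pass, with a median of −0.10. In plexinA2 morphants 2 rose and 23 did not pass, with a median of 0.14. Over all rows the shares called higher were 1.99% and 2.61%, and the medians 0.06 and 0.04. An unadjusted limma p under 0.05 was found for 7 of the 25 rows in sema6A and 5 in plexinA2 morphants. The shares of all rows were 20.6% and 17.2%. The 1 call in sema6A morphants was lost in 9 of 12 leave-one-out fits, with adjusted p up to 0.0985, and the number of called rows there ran between 0 and 2. In plexinA2 morphants the Rac exchange factor gene TIAM1 (1.26 ± 0.31, adjusted p = 0.0273) and the L1 family adhesion gene NFASC (1.11 ± 0.28, adjusted p = 0.0348) rose, and their calls failed in 6 and 8 of 12 leave-one-out fits, with adjusted p up to 0.118 for TIAM1 and 0.158 for NFASC. With control replicate 2 and sema6A replicate 1 left out, 3 rows of this list passed in sema6A morphants and its median was 0.15.

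Of 23 semaphorin, plexin and signalling rows (71 names), none passed in sema6A morphants by limma and 6 had an unadjusted p under 0.05 (20.6% of all rows did), with a median of −0.22. In plexinA2 morphants 1 rose and 22 did not pass, with a median of 0.51. It was ABL2, an Abl family tyrosine kinase gene (1.14 ± 0.27, adjusted p = 0.0234), whose call failed in 6 of 12 leave-one-out fits, with adjusted p up to 0.0920. By limma 8 of the 23 rows had an unadjusted p under 0.05 in plexinA2 morphants, against 17.2% of all rows. There 87% of the list lay above 0, against 53.4% of all rows, whose median was 0.04. In sema6A morphants 43.5% of the list lay above 0, against 54.9% of all rows. The list's score on an array, its mean deviation in log2, lay between 0.16 and 0.58 in plexinA2 morphants. It lay between −0.30 and −0.11 in sema6A morphants and between −0.47 and 0.33 in controls, so the control range overlapped both others. The sema6A median was 0.02 without control replicate 4 and also with control replicate 2 and sema6A replicate 1 left out.

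Genes of the p53 response moved in the same arrays as RASL11B and SHTN1. Of 23 measured rows (46 names), 10 rose in sema6A morphants and 13 stayed under the threshold, and in plexinA2 morphants 11 rose and 12 stayed under it, and no row of the list was called lower. The medians were 0.96 and 1.00, against 0.06 and 0.04 over all rows. Of all rows, 1.99% were called higher in sema6A morphants and 2.61% in plexinA2 morphants. Among the list rows that rose were PHLDA3, a restraint on Akt (3.64 ± 0.28 and 3.57 ± 0.28), the initiator caspase gene casp8 (3.55 and 3.50), the growth arrest gene GADD45A (2.85 and 3.18) and bbc3, which encodes Puma (2.37 and 3.35), each in sema6A and then in plexinA2 morphants. The list's score on an array, its mean deviation in log2, ran between 0.11 and 0.58 in sema6A morphants, between 0.38 and 0.59 in plexinA2 morphants, and between −1.10 and −0.66 in controls. The array with the lowest score was also the one with the lowest RASL11B in sema6A morphants (replicate 4) and in controls (replicate 4), but not in plexinA2 morphants, where the score was lowest on replicate 1 and RASL11B on replicate 3. For SHTN1 it was the same array in sema6A morphants (replicate 4) and plexinA2 morphants (replicate 1), but not in controls, where SHTN1 was lowest on replicate 2. The part of this response in the rises of RASL11B and SHTN1 was not tested.

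**Figure D4:**
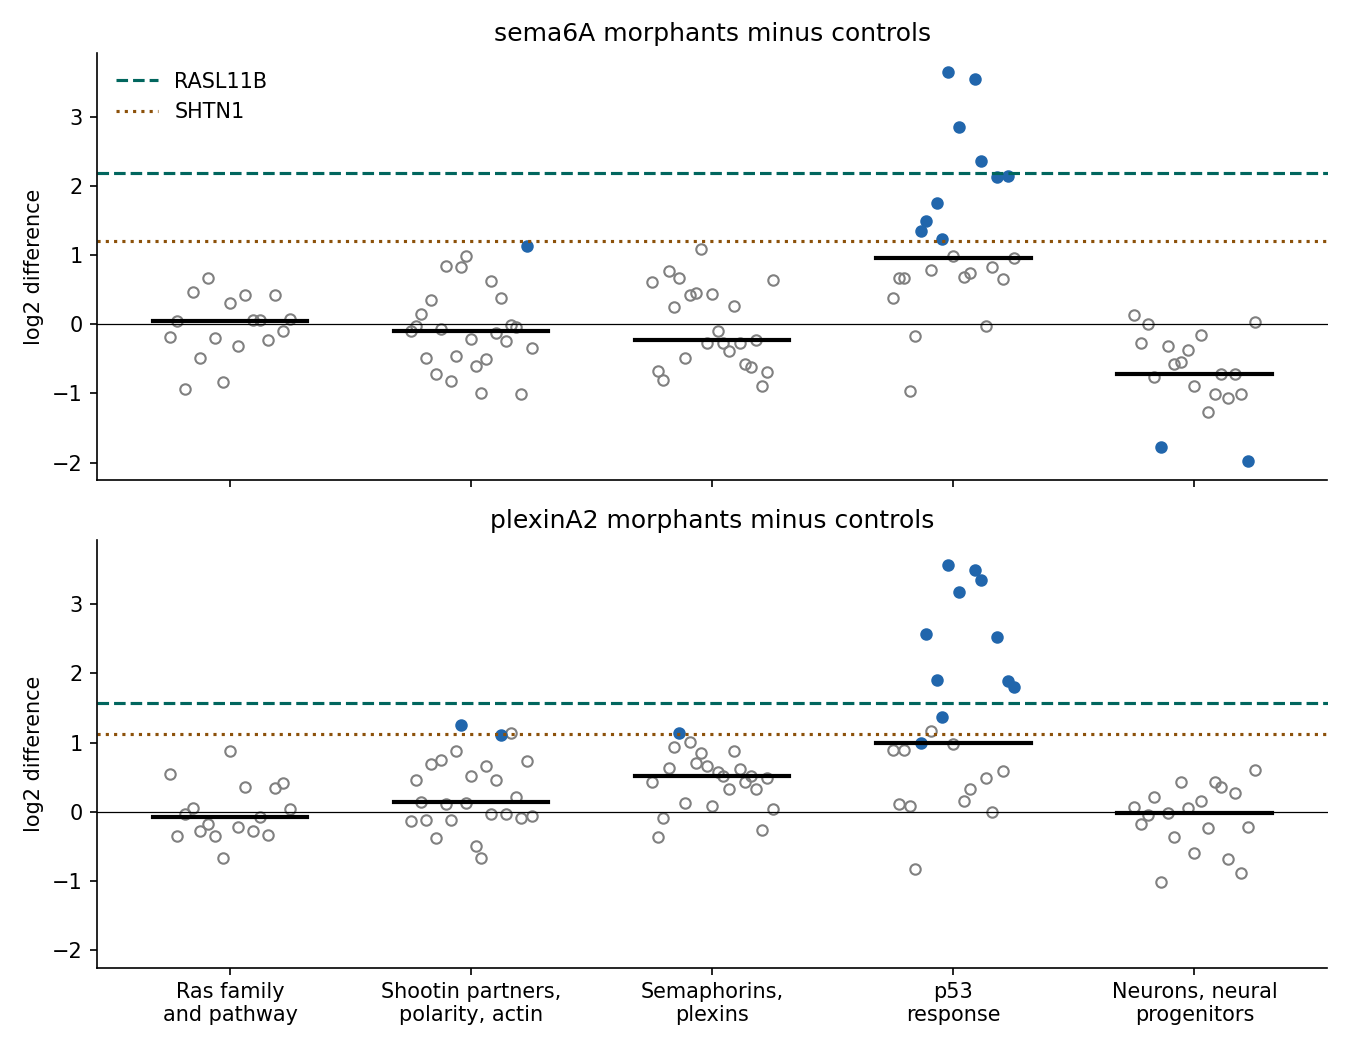
Log2 difference of each measured row of 5 gene lists in sema6A (top) and plexinA2 (bottom) morphants against controls. Filled points passed at an adjusted p under 0.05, open points did not, black bars are list medians without RASL11B and SHTN1, and the dashed and dotted lines mark RASL11B and SHTN1. The Ras list centres near 0 (medians 0.05 and −0.08), and the p53 list has medians of 0.96 and 1.00.

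No neural marker passed the test as higher beside SHTN1. Of 19 measured rows of neurons and neural progenitors (62 names), 2 fell in sema6A morphants and the other 17 stayed under the threshold (median −0.72), and by limma none passed in plexinA2 morphants, where 2 of the 19, against 17.2% of all rows, had an unadjusted p under 0.05 (median −0.02). The 2 were MYT1, a neural zinc finger factor gene (−1.97 ± 0.36, limma adjusted p = 0.00449), and FABP7 of radial glia (−1.78 ± 0.45, adjusted p = 0.0380), whose call failed in 9 of 12 leave-one-out fits, with adjusted p up to 0.0807. Of all 5134 rows, 58 were called lower in sema6A morphants. In that comparison 7 of the 19 neural rows had an unadjusted limma p under 0.05, against 20.6% of all rows. The list score lay between −0.94 and −0.18 in sema6A morphants, between 0.10 and 0.23 in plexinA2 morphants, and between −0.01 and 0.65 in controls.

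No row of the eye field, muscle or erythroid lists was called higher in either morphant group with all arrays. None of the 13 measured eye field and optic vesicle rows (38 names) passed in either group by limma, and 1 had an unadjusted p under 0.05 in each, against 20.6% of all rows in sema6A and 17.2% in plexinA2 morphants. The medians were −0.52 in sema6A and 0.08 in plexinA2 morphants. In sema6A morphants 7.69% of the list lay above 0, against 54.9% of all rows, and in plexinA2 morphants 69.2%, against 53.4%. The eye field score lay between −0.50 and −0.35 in sema6A morphants, below both other groups. It lay between 0.07 and 0.35 in plexinA2 morphants and between −0.06 and 0.41 in controls. The eye field median in plexinA2 morphants was −0.12 without control replicate 4, and 1 row passed in sema6A morphants without sema6A replicate 4.

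Of 20 skeletal muscle rows (44 names), none passed against controls by limma. In those comparisons 8 in sema6A and 4 in plexinA2 morphants had an unadjusted p under 0.05, against the same 20.6% and 17.2% of all rows. Between the morphants, 5 of the 20 rows were called lower in sema6A than in plexinA2 morphants, against 65 of all 5134 rows. The number of rows called between the morphants ran between 6 and 495 without single arrays. The muscle median was −0.91 in sema6A morphants, or −0.44 without sema6A replicate 1 and −0.55 without control replicate 4, and 1 row passed without sema6A replicate 4. It was 0.62 in plexinA2 morphants, where 4 rows passed without control replicate 4 and 1 without sema6A replicate 1. The muscle score lay between −2.24 and −0.28 in sema6A morphants, between 0.62 and 0.75 in plexinA2 morphants, and between −0.35 and 1.02 in controls.

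Of 15 erythroid rows (34 names), 3 fell in sema6A morphants and 12 stayed under the threshold, with a median of −1.45, or −1.04 without sema6A replicate 1 and −0.98 without control replicate 4. They were hbae1.3, an embryonic globin gene (−2.49), gata1a, whose product switches on red cell genes (−1.59), and alas2, the gene of the first enzyme of haem synthesis (−1.52). Leaving out sema6A replicate 3 raised the adjusted p of gata1a to 0.0522, and leaving out sema6A replicate 2 raised that of alas2 to 0.0572, so that each call failed. With control replicate 3 left out, 6 erythroid rows passed. Of all 5134 rows, 58 were called lower in sema6A morphants with all arrays. In that comparison 8 of the 15 erythroid rows had an unadjusted limma p under 0.05, against 20.6% of all rows. By limma none passed in plexinA2 morphants, where 2 of the 15 had an unadjusted p under 0.05, against 17.2% of all rows. The median there was −0.18, or 0.24 without control replicate 4, when 2 rows passed. The erythroid score lay between −1.45 and −0.43 in sema6A morphants, between 0.29 and 0.38 in plexinA2 morphants, and between 0.16 and 0.98 in controls.

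Sema6A replicate 1 had the lowest muscle and erythroid scores of the 12 arrays, and control replicate 4 the highest. Without sema6A replicate 1, the rise in sema6A morphants was 1.24 for SHTN1 and 2.15 for RASL11B on the log2 scale. Without control replicate 4 it was 1.18 for SHTN1 and 1.98 for RASL11B in sema6A morphants, and 1.09 and 1.37 in plexinA2 morphants, and all these calls were kept. The part of these marker shifts in the SHTN1 and RASL11B values was not tested.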

How the data were processed

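Total RNA was labelled with Cy3 and hybridised to 1-colour arrays, per the labels. The submitters' processing notes name RMA (robust multi-array average: background correction, normalization between arrays, probe summary) and give no version. The intensity values the authors deposited were on a linear scale, between 26.3 and 42222, with none at 0. RMA compresses differences of dim rows, and its scaling hides any change common to all genes. The number of arrays limits precision. The sources used here give no genome build for the array.

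The log2 values, without a pseudocount, entered lmFit and eBayes of limma 3.58.1 (R 4.3.3), with group as the single term over all 12 arrays and Benjamini-Hochberg adjustment over 5134 rows in each comparison. Symbols matched 4349 rows. List symbols were matched exactly, without case, or without the paralogue letter. The 8 lists were described by counts and medians.

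RASL11B, SHTN1 and the lists were chosen with earlier results of these data known. Genes named besides them were, for each, the 5 rows of highest r over 12 arrays, the 3 of highest r after removing group means, and up to 3 rows of smallest p per list and comparison; relatives and neighbours were added after values were seen. Of 12 same-numbered pairs of arrays from different groups, 3 had residual correlations above 0.1 (range −0.24 to 0.36). Pairs with different numbers ranged from −0.44 to 0.31. These overlapping ranges cannot settle whether replicate numbers pair the arrays, and the main fit used no pairing. Replicates are biological per the labels, which do not say that each came from its own clutch. The row of the shootin partner list that was called in sema6A morphants is not reported here by name.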

Additional observations from a re-analysis of the deposited data

How the results depend on the processing

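RASL11B kept its direction and both calls against controls under all 10 other settings tried (2.08 to 2.18 in sema6A and 1.43 to 1.61 in plexinA2 morphants) and without any single array (1.98 to 2.30 and 1.37 to 1.74). For RASL11B and SHTN1 alike, 1 of the 10 settings was the exact permutation test. Its p of 0.0286 is unadjusted, so a call counted as kept there met a less strict threshold than elsewhere. SHTN1 kept its direction against controls throughout. Its calls were kept under the other settings (1.12 to 1.21 and 1.01 to 1.12) except in the fit of only the sema6A and control arrays (1.21, adjusted p = 0.102), where fewer arrays estimate the spread. Without single arrays the SHTN1 difference was 1.09 to 1.31 in sema6A morphants, lost in 2 of 12 fits, and 1.01 to 1.22 in plexinA2 morphants, lost in 5. The difference between sema6A and plexinA2 morphants was 0.45 to 0.81 for RASL11B without single arrays and passed with array weights (0.65). For SHTN1 it was −0.033 to 0.18, the negative value arising without sema6A replicate 2. The cause was not tested. With replicate number as a block (replicate block), RASL11B differed by 2.18 (adjusted p = 0.000824) and 1.58 (0.00695) and SHTN1 by 1.21 (0.0322) and 1.12 (0.0458), and no call of either gene changed. The correlation with group means removed was 0.14 to 0.46 without single arrays and passed under none of the settings tried.

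The number of called rows depended more on the settings. In sema6A morphants it was 160, with 47 when only the 2 groups were fitted, 1407 with array weights and 66 to 226 without single arrays. In plexinA2 morphants it was 147, with 1629 under array weights, 275 with control replicate 2 and sema6A replicate 1 left out, and 79 to 326 without single arrays. Between the morphants it was 88. It was 144 under the block, 743 with only the 2 groups, 158 with quantile normalization, 146 with median centring, 136 with an offset of 50, 2273 with array weights, 880 without those 2 arrays and 6 to 495 without single arrays.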

Other observations

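Genes beside RASL11B and SHTN1 on their chromosomes were looked at after the values were seen, using the order of protein-coding genes in RefSeq's GRCz12tu annotation. Of the 5 genes on each side of RASL11B, 4 were measured, and 1 of them passed in each morphant group. Of all rows, 1.99% were called higher in sema6A morphants and 2.61% in plexinA2 morphants. The neighbour that passed was LNX1, a ubiquitin ligase gene whose product acts on the Notch regulator Numb in mammals, 3 genes away from RASL11B. Its intensities were 519, 573, 735 and 476 on sema6A replicates 1 to 4 and 590, 535, 615 and 556 on plexinA2 replicates 1 to 4, against 264, 121, 286 and 235 on control replicates 1 to 4. All morphant arrays lay above all controls. LNX1 rose by 1.40 ± 0.30 in sema6A morphants (SE, limma adjusted p = 0.0140) and by 1.41 ± 0.30 in plexinA2 morphants (adjusted p = 0.0111). The call in sema6A morphants failed without sema6A replicate 2 (adjusted p = 0.0516) or sema6A replicate 3 (0.0696) and when only the sema6A and control arrays were fitted (adjusted p = 0.0902), and that in plexinA2 morphants was kept without any single array. The nearer neighbour usp46 did not pass (0.01 in sema6A and 0.90 in plexinA2 morphants, adjusted p = 0.993 and 0.236). Of the 5 genes on each side of SHTN1, 4 were measured and none passed in either group by limma; the eye field gene vax1, 2 genes away, differed by −0.65 (adjusted p = 0.258) and 0.12 (adjusted p = 0.876).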
